A study of Mus musculus with 1483 samples.

Results

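The CGE lineage regulators described here are 7 genes, Adarb2, Prox1, Nr2f1, Nr2f2, Sp8, Npas1 and Npas3, taken by name from the 45768 gene columns of a single-cell expression table. The table holds 1483 single cells from 33 C57Bl/6J mice, from the tissue labelled VISp, the primary visual area of the cortex. Each mouse carried 1 of 11 enhancer viruses (AAV), in which an enhancer element drives the yellow fluorescent protein SYFP2, and single fluorescent cells were sorted and their polyadenylated RNA read with the SMARTer v4 chemistry. The enhancers were eHGT_017h, eHGT_019h, eHGT_023h, eHGT_058h, eHGT_078h, eHGT_079h, eHGT_128h, eHGT_140h and hDLXI56i with 3 mice each, eHGT_064h with 4 mice and eHGT_082h with 2 mice. All groups share the strain, the tissue, the reporter and the sort, and no group of unlabelled cells is among them, so each group holds only cells in which its enhancer was active enough to be sorted. The labels and protocols used here state neither the age nor the sex of the mice.

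Cortical interneurons are born in the ganglionic eminences of the embryonic forebrain and migrate into the cortex. Cells of the medial eminence (MGE) become mainly the Pvalb and Sst classes and depend on the transcription factors Lhx6 and Sox6, whereas cells of the caudal eminence (CGE) become mainly the Vip and Lamp5 classes. The 7 genes are best known from the second lineage. Adarb2 belongs to the family of adenosine deaminases that act on RNA and has no known editing activity of its own. Prox1 is a homeobox factor required for the migration and maturation of CGE-derived interneurons. Nr2f1 and Nr2f2 (COUP-TF1 and COUP-TF2) are orphan nuclear receptors, Sp8 is a zinc finger factor of the Sp family, and Npas1 and Npas3 are basic helix-loop-helix PAS factors.

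Adarb2 and Prox1 were the members whose levels followed each other most closely over all cells, and the bases just before their start sites are shown for that reason. Adarb2 lies on the plus strand of chromosome 13 (GRCm38, 8202866 to 8768747) and Prox1 on the minus strand of chromosome 1 (190118035 to 190170714). The windows are the 250 bases before a start site that RefSeq gives on GRCm38.p6, chr13:8202616-8202865 on the plus strand and chr1:190170828-190171077 on the minus strand. Capitals mark a match, on either strand, to any of the motifs searched.
Adarb2: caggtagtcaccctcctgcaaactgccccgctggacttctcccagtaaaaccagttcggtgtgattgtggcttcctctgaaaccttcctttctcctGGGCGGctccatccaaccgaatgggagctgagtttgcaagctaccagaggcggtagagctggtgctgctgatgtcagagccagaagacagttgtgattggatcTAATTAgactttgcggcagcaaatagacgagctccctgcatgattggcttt
Prox1: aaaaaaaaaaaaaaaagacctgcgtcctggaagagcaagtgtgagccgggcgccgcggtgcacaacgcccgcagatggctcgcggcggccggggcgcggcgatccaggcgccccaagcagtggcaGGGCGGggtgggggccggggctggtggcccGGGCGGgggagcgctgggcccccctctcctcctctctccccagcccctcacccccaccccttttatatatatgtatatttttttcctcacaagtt
The motifs were AGGTCA, the half-site that nuclear receptors bind, GGGCGG, the GC box of Sp factors, CACGTG, an E-box, TAATTA, a homeodomain core, and GCGTG, a core of PAS factors. GGGCGG was in 4 of the 7 windows (Adarb2, Prox1, Nr2f1 and Npas1) and in 32.9% of the 27025 windows of the same length. TAATTA was in the Adarb2 window and in 4.90% of all windows. The nuclear receptor half-site, the E-box and the PAS core were in none of the 7 windows, and in 13.8%, 6.05% and 28.2% of all windows respectively. A match is a description of these letters and not a binding site.

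Values are in CPM, the reads of a gene scaled to the same total in every cell. The median cell had 586338 reads (lowest 833, highest 1018507), so that 1 read in the median cell is worth 1.71 CPM. Cells were placed in classes by genes outside the 7. A cell was excitatory with Slc17a7 at 10 CPM or more and Gad1 and Gad2 below 10, and GABAergic with Gad1 or Gad2 at 10 or more and Slc17a7 below 10. A GABAergic cell was assigned to Lamp5, Vip, Pvalb or Sst where that marker alone reached 100 CPM. This gave 154 Lamp5, 50 Vip, 575 Pvalb, 214 Sst and 278 excitatory cells. Another 111 GABAergic cells had several markers, 21 had none, 79 cells had both transmitters' genes and 1 had neither. The label VISp names a place and no cell type. Of other markers, Npy averaged 24787 CPM in Lamp5 cells, Htr3a 837 in Vip, Tac1 632 in Pvalb, Grin3a 385 in Sst and Neurod6 219 in excitatory cells. Not every marker was confined to or highest in its class. Npy was also at 4398 CPM in Sst and 2866 in Vip cells. Erbb4, listed for Pvalb, averaged 1032 CPM there, 1207 in Vip and 1016 in Lamp5 cells. Cck, listed for Vip, averaged 1382 CPM there and 1487 in excitatory cells. Summed astrocyte markers stayed at or below 78.4 CPM in every mouse and class, and summed oligodendrocyte markers at or below 141 CPM but for 1 Sst unit at 2559 CPM, and their part in the results was not tested.

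Adarb2 and Prox1 separated the classes that are attributed to the CGE from all others. The unit was the mean over at least 5 cells of a class in 1 mouse, which gave 7 Lamp5, 4 Vip, 21 Pvalb, 12 Sst and 9 excitatory units. Adarb2 was at 1323 and 1427 CPM in the Vip cells of 2 eHGT_017h mice, at 2496 in those of an eHGT_019h mouse and at 2167 in those of an hDLXI56i mouse. In Lamp5 cells it ran from 318 to 890 CPM with a median of 767. The highest Pvalb unit had 1.40 CPM and the highest Sst unit 0.159 CPM, so that no unit of these classes came near a Lamp5 or Vip unit. Adarb2 reached 10 CPM in 153 of 154 Lamp5 cells and 50 of 50 Vip cells. It did so in 4 of 575 Pvalb cells and in 0 of 214 Sst cells. For the Sst cells the exact 95% binomial interval ends at 1.71% (intervals here cover counting error only). The highest excitatory unit had 8.47 CPM, and 7 of 278 excitatory cells reached 10 CPM, the highest being at 112 CPM.

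Prox1 divided the classes in the same way. Its 4 Vip units, in the same order of mice, were at 197, 145, 164 and 135 CPM and its Lamp5 units ran from 57.9 to 94.9 CPM with a median of 74.2. In Pvalb cells 20 of 21 units were listed at 0, and in Sst cells 11 of 12, the other one being at 1.96 CPM. Prox1 reached 10 CPM in 132 of 154 Lamp5 and 48 of 50 Vip cells, and in 0 of 575 Pvalb cells, 1 of 214 Sst cells and 0 of 278 excitatory cells. The groups of units do not overlap for either gene.

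**Figure D1:**
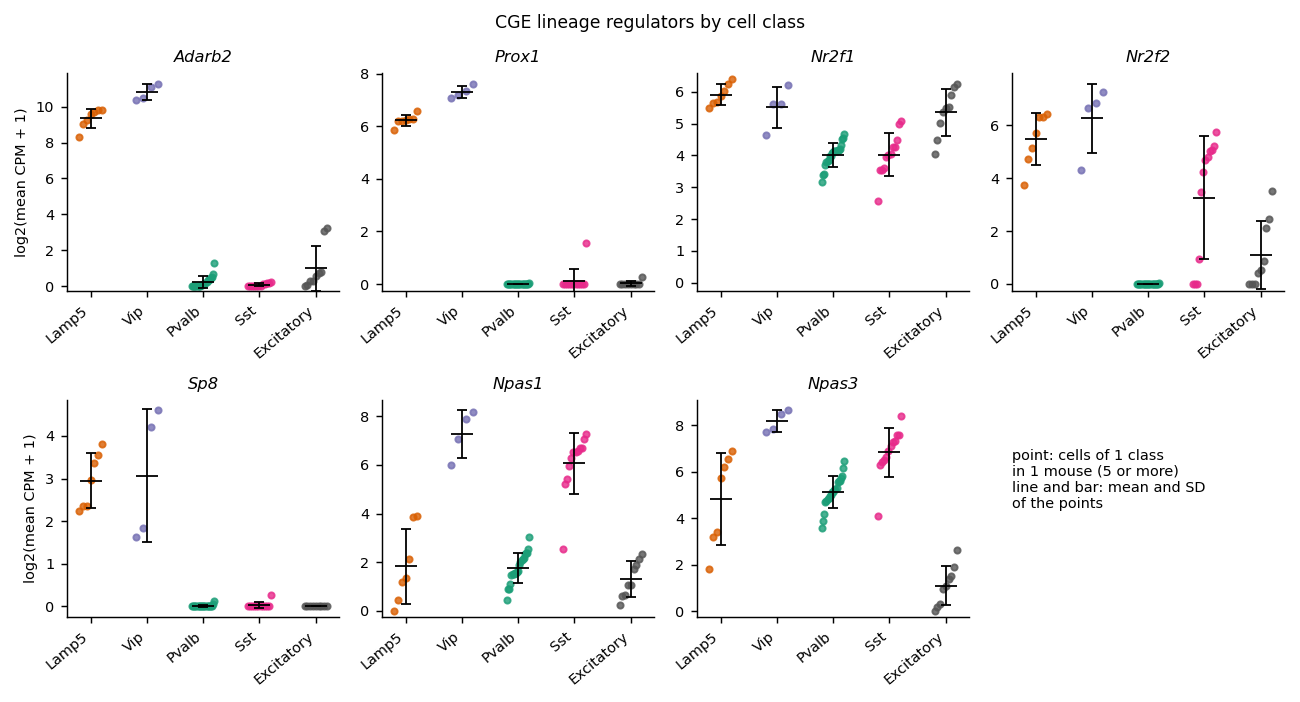
Mean level of each regulator in each cell class, on a log2(CPM + 1) axis; a point is the cells of 1 class in 1 mouse, the line and bar are the mean and SD of the points. Adarb2 and Prox1 are high in all Lamp5 and Vip points and near 0 in all Pvalb and Sst points, whereas Npas1 is high in Vip and Sst points, and Nr2f1 is above 0 in every class.

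A test over the units was made with limma on log2(mean CPM + 1), with the mouse as a block and Benjamini-Hochberg adjustment over 20927 genes, and a gene was called at an adjusted p under 0.05 and a difference of at least 1 on the log2 scale. Between the mean of Lamp5 and Vip and the mean of Pvalb and Sst, 5 of the 7 members were called, all higher in Lamp5 and Vip, where 5.78% of all genes tested were called higher. The difference on this scale was 9.90 ± 0.23 (SE) for Adarb2 (adjusted p = 2.23e-41 in limma) and 6.71 ± 0.13 for Prox1 (adjusted p = 3.22e-45). It was 4.17 ± 0.45 for Nr2f2, 2.999 ± 0.17 for Sp8 and 1.70 ± 0.20 for Nr2f1. Npas1 (0.62 ± 0.34, adjusted p = 0.167) and Npas3 (0.46 ± 0.35, adjusted p = 0.333) did not pass. With a pseudocount of 10 CPM the Sp8 difference was 0.86, below the size required, since its levels lie near 10 CPM. These p-values measure the spread between units, which includes differences between mice and between enhancers. The Lamp5 and Vip units came from eHGT_017h, eHGT_019h, eHGT_058h and hDLXI56i mice alone, so class and enhancer cannot be fully told apart.

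The nuclear receptors differed from each other in how widely they were found. Nr2f2 was at 100.5, 113, 19.05 and 151 CPM in the 4 Vip units and between 12.5 and 84.5 CPM in Lamp5 units, with a median of 51.3. In Pvalb cells 20 of 21 units were listed at 0 and no cell of 575 reached 10 CPM. Sst units lay between these, from 0 to 53.6 CPM with a median of 21.2, and 40 of 214 Sst cells (18.7%) reached 10 CPM. In those 40 cells the median was 83.5 CPM, above the median of 47.3 CPM among the 114 Lamp5 cells that reached 10 CPM, so the lower Sst mean goes with fewer cells at 10 CPM or more. Pvalb minus Sst was -3.22 ± 0.45 (adjusted p = 3.41e-08 in limma).

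Nr2f1 was found in every class. It averaged 60.5 ± 14.3 CPM (SD, n = 7 units) in Lamp5, 48.1 ± 19.8 (n = 4) in Vip, 44.4 ± 20.4 (n = 9) in excitatory, 16.9 ± 8.2 (n = 12) in Sst and 15.7 ± 4.1 (n = 21) in Pvalb cells. Neighbours in this order overlapped in range. Lamp5 minus Vip (0.35 ± 0.33, adjusted p = 0.516) did not pass, and excitatory minus the mean of the GABAergic classes (0.50 ± 0.21, adjusted p = 0.0494) was below the size required. Nr2f1 lies on the minus strand of chromosome 13 (78188973 to 78199757) and shares 123 exonic bases with the antisense gene A830082K12Rik. That gene's column followed the same order, with 63.5 CPM in Lamp5 and 29.7 in Pvalb cells, and without strand in the counting the reads of the shared bases cannot be told apart. Prox1 likewise shares 133 bases with Prox1os.

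Sp8 was found in few cells, and among the 5 classes in Lamp5 and Vip cells alone. Its Vip units were at 23.3 and 17.4 CPM in eHGT_017h mice, 2.06 in the eHGT_019h mouse and 2.58 in the hDLXI56i mouse. Lamp5 units ran from 3.70 to 12.95 CPM with a median of 6.82. Sp8 reached 10 CPM in 33 of 154 Lamp5 cells and 13 of 50 Vip cells, and all of these cells also had Adarb2. No Pvalb, Sst or excitatory cell reached 10 CPM, and all 9 excitatory units were listed at 0.

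**Figure D2:**
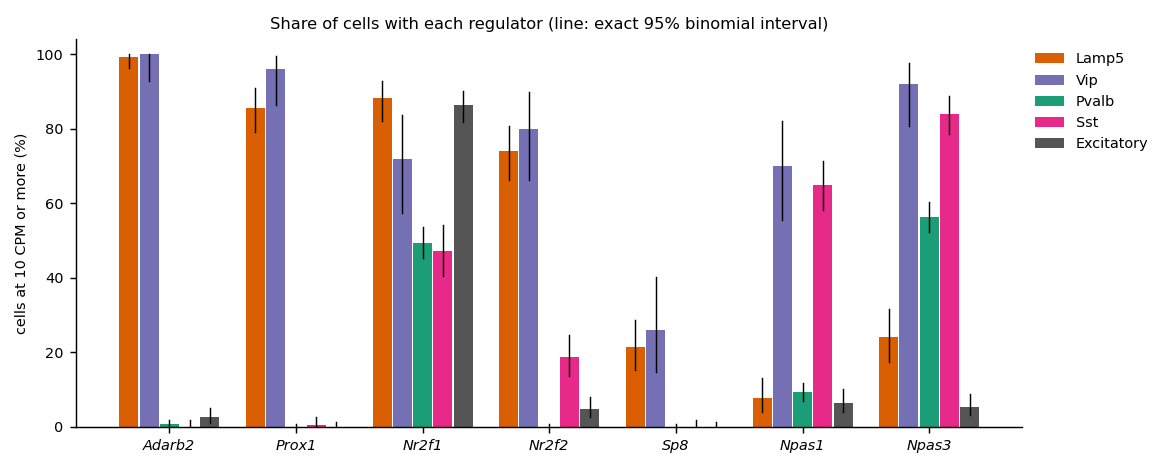
Share of the cells of each class in which a regulator reached 10 CPM, in percent; bars are shares over all cells of a class and lines are exact 95% binomial intervals. Prox1 is found in 85.7% of Lamp5 and 96.0% of Vip cells and in at most 0.467% of the cells of any other class shown, Nr2f2 in 18.7% of Sst cells, and Nr2f1 in 47.2% or more of the cells of each class at this threshold.

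The PAS factors did not follow the same division. Npas1 was high in Vip cells, at 236 and 293 CPM in eHGT_017h mice, 62.2 in the eHGT_019h mouse and 135 in the hDLXI56i mouse, and high in Sst cells, from 4.83 to 154 CPM with a median of 91.6. Lamp5 units ran from 0 to 13.8 CPM and Pvalb units from 0.357 to 7.12 CPM. All 4 Vip units lay above all Lamp5 and Pvalb units, while 1 Sst unit, of an eHGT_023h mouse, fell within the Lamp5 and Pvalb range. Npas1 reached 10 CPM in 70.0% of Vip and 65.0% of Sst cells, and in 7.79% of Lamp5 and 9.22% of Pvalb cells.

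Npas3 was graded across the interneurons. It averaged 302 ± 99 CPM (SD, n = 4) in Vip, 138 ± 81 (n = 12) in Sst, 50.5 ± 45.5 (n = 7) in Lamp5 and 37.8 ± 18.1 (n = 21) in Pvalb cells. Neighbours in this order overlapped in range, the Vip units running from 209 to 409 CPM and the Sst units from 16.4 to 340. Npas3 reached 10 CPM in 92.0% of Vip, 84.1% of Sst, 56.3% of Pvalb and 24.03% of Lamp5 cells, so that fewer Lamp5 than Pvalb cells had it although the class means were alike.

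The shares of low members depend on the threshold. As means over units, Nr2f1 was at 10 CPM or more in 45.5% of Pvalb, 46.7% of Sst and 85.4% of excitatory cells, and at 30 CPM or more in 17.8%, 21.01% and 49.5%. Sp8 was at 10 CPM or more in 22.4% of Lamp5 and 22.9% of Vip cells, and at 30 CPM or more in 8.70% and 14.6%. For Npas1 the shares at 10 and 30 CPM were 9.002% and 0.922% in Pvalb cells and 5.60% and 2.73% in Lamp5 cells. Adarb2 stayed at 99.6% of Lamp5 and 100% of Vip cells at 30 CPM, and Nr2f2 was in 15.6% of Sst cells against 18.1% at 10 CPM.

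Npas1 had the largest difference of the 7 members within each lineage. Of the 7 members, 4 were called lower in Lamp5 than in Vip, where 5.47% of all genes tested were called lower. They were Npas1 (-5.39 ± 0.58, adjusted p = 9.83e-11 in limma), Npas3 (-3.31 ± 0.60, adjusted p = 2.61e-05), Adarb2 (-1.48 ± 0.39, adjusted p = 0.00324) and Prox1 (-1.08 ± 0.22, adjusted p = 0.000122). The Nr2f2 difference was -0.66 ± 0.78 (adjusted p = 0.620). The Adarb2 and Prox1 calls rest on 4 Vip units. Both ended with a pseudocount of 0.1 CPM (-1.52 and -1.11) and with the mouse as a fixed effect (-1.73 and -1.10). Units of at least 10 cells gave -0.997 and -1.03, but leave only the Vip unit of eHGT_017h mouse MouseID-410195. The Prox1 difference was below the size required with a pseudocount of 10 CPM (-0.99), with units of at least 3 cells (-0.68) and without eHGT_017h mouse MouseID-406074 (-0.98). Between Pvalb and Sst, 3 members were called lower in Pvalb, where 4.61% of all genes tested were: Npas1 (-4.29 ± 0.34), Nr2f2, given above, and Npas3 (-1.68 ± 0.35, adjusted p = 0.000103).

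Most members were low in excitatory cells. Of the 7, 6 were called lower than in the mean of the 4 GABAergic classes, where 4.66% of all genes tested were called lower. The difference was -5.06 ± 0.37 for Npas3, -4.09 ± 0.24 for Adarb2, -3.41 ± 0.13 for Prox1, -2.87 ± 0.36 for Npas1, -2.55 ± 0.48 for Nr2f2 and -1.50 ± 0.18 for Sp8 (adjusted p of 1.24e-05 or below for each in limma). The excitatory units came from eHGT_023h, eHGT_058h and eHGT_078h mice alone. With a pseudocount of 10 CPM the Sp8 difference was -0.43, with the enhancer as a covariate the Nr2f2 difference was -0.96, neither being called, and with the mouse as a fixed effect those of Nr2f2 (-1.05) and Npas1 (-1.53) were not called.

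The order of the members within a class was read per kilobase of exon, since reads from whole transcripts grow with length. In Vip cells Adarb2 led with 141 ± 43 CPM per kb (SD, n = 4), followed by Npas1 with 60.3 ± 34.2 and Npas3 with 50.2 ± 16.5. Adarb2 also led in Lamp5 cells, with 52.4 ± 16.4 CPM per kb (n = 7), ahead of Nr2f1 with 11.9 ± 2.8 and Prox1 with 8.95 ± 1.28. In Sst cells Npas1 (27.5 ± 13.8, n = 12) and Npas3 (23.02 ± 13.6) led and did not differ beyond their spread. Npas3 led in Pvalb cells with 6.30 ± 3.02 CPM per kb (n = 21) and Nr2f1 in excitatory cells with 8.72 ± 4.01 (n = 9).

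Other genes of the lineages were counted by list. Of 10 partners in CGE-derived cells, 8 were called higher and 1 lower in Lamp5 and Vip against Pvalb and Sst. Of all genes tested, 5.78% were called higher and 4.8% lower. The list median was 2.62 on the log2 scale, beside -0.02 over all genes. Among the partners, Tox2 averaged 112 CPM in Lamp5 but 12.8 in Vip cells, against 60.9 in Pvalb and 56.0 in Sst cells. The largest differences among the partners were those of Egfr (6.53), a growth factor receptor, and Id2 (5.78), an inhibitor of basic helix-loop-helix factors. Next were Htr3a (5.61), a serotonin receptor subunit, and Cck (3.73), a neuropeptide gene. Htr3a averaged 850 CPM in Vip but 4.41 CPM in Lamp5 units. Id2 averaged 1518 CPM in Lamp5, 135 in Vip and 505 in excitatory units. Of 9 tested MGE lineage genes 6 were called lower, where 4.8% of all genes tested were, led by the neuropeptide gene Tac1 (-6.65), Sox6 (-6.55), Lhx6 (-6.51) and Satb1 (-5.42), with a median of -3.26. Of 8 genes listed as regulators shared by the GABAergic lineages, 2 were called higher, Dlx6os1 (2.77) and Dlx1 (1.22), where 5.78% of all genes tested were. All 8 were called lower in excitatory cells, where 4.66% of all genes tested were.

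Of 7 relatives (paralogs) of the members, 2 were called higher in Lamp5 and Vip, where 5.78% of all genes tested were. They were Npas2 (1.64) and Sp9 (1.04), which is also among the 10 partners. The median over the paralogs was 0.51 on the log2 scale, beside -0.02 over all genes. Adarb1, the editing enzyme most like Adarb2, differed by -0.03 (adjusted p = 0.903 in limma).

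Within the Lamp5 class, cells were split at 100 CPM of Ndnf, a secreted protein that marks neurogliaform cells of the outer layer. Nr2f2 was at 33.7, 111, 133 and 151 CPM in the 4 units with high Ndnf and between 14.8 and 43.1 CPM in the 7 units with low Ndnf. In 3 of the 4 mice that had both kinds of cells Nr2f2 was higher in the cells with high Ndnf, and in eHGT_019h mouse MouseID-392043 it was 33.7 against 34.2 CPM. The difference was 1.83 ± 0.37 on the log2 scale (adjusted p = 0.0187 in limma). Nr2f2 was the 1 member called of 7, where 0.609% of all genes tested were called higher. Leaving out eHGT_019h mouse MouseID-400156 (1.68), eHGT_019h mouse MouseID-401668 (1.56) or hDLXI56i mouse MouseID-400157 (1.74) ended the call. Npas3 (2.75 ± 1.01, adjusted p = 0.255) and Npas1 (1.92 ± 0.79, adjusted p = 0.323) did not pass, and without mouse MouseID-392043 Npas3 was called (4.15). Adarb2 and Prox1 averaged 778 ± 230 and 87.4 ± 17.2 CPM (n = 4) with high Ndnf and 663 ± 264 and 69.6 ± 12.3 (n = 7) with low Ndnf, and their ranges overlapped.

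Sst cells were split at 100 CPM of Calb2, the calcium-binding protein calretinin. Npas1 was at 21.2, 28.9, 9.58, 4.27 and 9.83 CPM in the 5 units with high Calb2 and between 47.7 and 177 CPM in the 11 units with low Calb2, with no overlap. The difference was -3.08 ± 0.32 (adjusted p = 7.88e-06 in limma). Nr2f2 was listed at 0 in all 5 units with high Calb2, against 28.6 ± 24.8 CPM (SD, n = 11) with low Calb2, 2 of which were also at 0 (adjusted p = 0.0253 in limma). In the 5 mice that had both kinds of cells, Nr2f2 was at 51.1, 80.3, 35.4, 0 and 1.60 CPM in the cells with low Calb2. Npas1 and Nr2f2 were the 2 called of 4 members tested, both lower, where 0.741% of all genes tested were called lower. Npas1 was called in every alternative run, whereas the Nr2f2 call ended with a pseudocount of 10 CPM (-1.61), without the eHGT_017h cells (-3.46) and without eHGT_017h mouse MouseID-406074 (-3.62), eHGT_064h mouse MouseID-468100 (-3.55) or eHGT_064h mouse MouseID-492045 (-3.69). Npas3 averaged 62.4 ± 38.1 CPM with high and 168 ± 74 CPM with low Calb2 and did not pass (-1.93 ± 0.58, adjusted p = 0.148), but was called with units of at least 3 cells (-1.98).

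**Figure D3:**
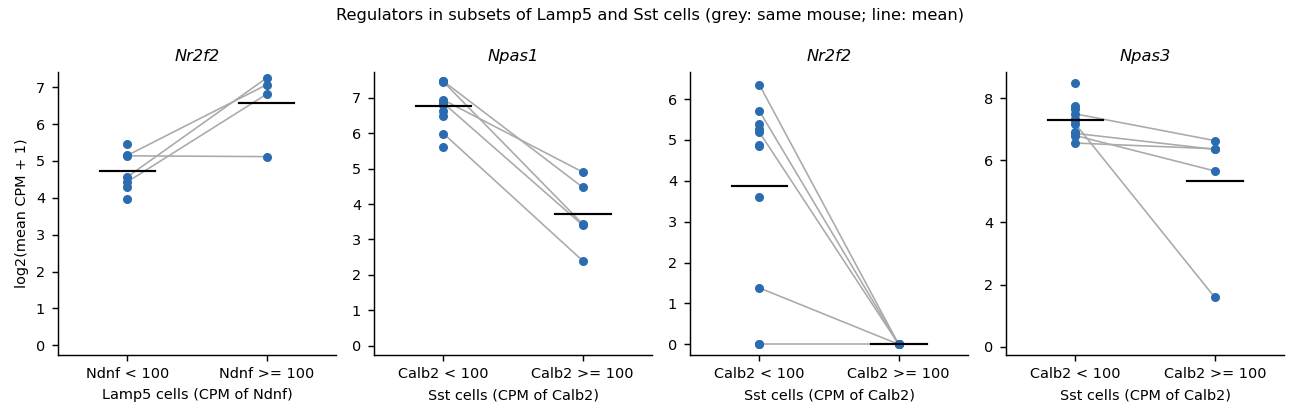
Regulators in Lamp5 cells split by Ndnf and in Sst cells split by Calb2, on a log2(CPM + 1) axis; a point is the cells of 1 subset in 1 mouse, grey lines join subsets of the same mouse and black lines are means. Nr2f2 is higher with high Ndnf in 3 of 4 joined mice, Npas1 is lower with high Calb2 in all 5 joined mice, and Nr2f2 is at 0 in all 5 units with high Calb2.

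In the 108 cells with both Pvalb and Sst at 100 CPM, Adarb2 reached 10 CPM in 1 cell and Prox1 in 0 cells. Npas3 was found in 82.4% of them, Nr2f1 in 50.0%, Npas1 in 28.7% and Nr2f2 in 11.1%. The Npas1 and Nr2f2 shares lie between those of the Pvalb and Sst classes.

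Across enhancers, levels were averaged over all cells of a mouse, so they mix the classes that an enhancer labelled with the level in each class. Each enhancer was set against the mean of the 10 others in limma over 18932 genes, and the F test over the 11 enhancers passed for all 7 members, as it did for 53.4% of all genes. Lamp5 and Vip cells made up 69.4 ± 16.3% (SD, n = 3 mice) of eHGT_019h cells, 42.97 ± 3.4% of hDLXI56i cells and 23.1 ± 16.2% of eHGT_017h cells, and at most 9.21% on average for any other enhancer. Outside these 3 groups, members were called higher in eHGT_058h (Nr2f1) and eHGT_064h (Npas1) only.

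In eHGT_019h mice Adarb2 was at 573, 1516 and 1233 CPM, Prox1 at 69.2, 79.3 and 104.4, and Nr2f2 at 36.5, 73.4 and 93.1 CPM. Of the 7 members 4 were called higher, where 5.78% of all genes tested were: Adarb2 (6.35 ± 0.87, adjusted p = 7.17e-06 in limma), Prox1 (4.50 ± 0.43), Nr2f2 (3.35 ± 0.63) and Sp8 (2.04 ± 0.20). The Adarb2 mean includes 1 cell with 833 reads, of which 22 were Adarb2. Without cells under 100000 reads the eHGT_019h mean was 870 ± 348 CPM, against 1108 ± 484 with them, and the gene was called all the same. Npas1 varied widely here, at 0.292, 18.6 and 38.9 CPM, as did Npas3 at 15.01, 132 and 212 CPM, and neither was called.

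The hDLXI56i element is an enhancer of the Dlx locus used to label interneurons broadly. Its mice had Adarb2 at 262, 331 and 662 CPM and Prox1 at 27.2, 32.9 and 42.3 CPM. Of the 7 members 4 were called higher, where 2.34% of all genes tested were: Adarb2 (4.81 ± 0.87), Prox1 (3.09 ± 0.43), Nr2f2 (2.28 ± 0.63) and Sp8 (1.73 ± 0.20). The Nr2f2 call ended without mouse MouseID-384912 (2.29) or mouse MouseID-400157 (1.83). Npas3 was at 35.1, 111 and 233 CPM and not called (1.32 ± 0.52, adjusted p = 0.105), and was called without mouse MouseID-382159 (2.04) or without eHGT_019h mouse MouseID-392043 (1.21); without mouse MouseID-400157 it was 0.69.

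In eHGT_017h mice the PAS factors were high as well. Npas1 was at 154, 140 and 180 CPM and Npas3 at 183, 197 and 255 CPM, above every mouse of the other enhancers for Npas1. Of the 7 members 6 were called higher, where 3.78% of all genes tested were: Adarb2 (5.10 ± 0.87), Npas1 (4.13 ± 0.66), Prox1 (3.55 ± 0.43), Nr2f2 (3.47 ± 0.63), Npas3 (2.53 ± 0.52) and Sp8 (1.68 ± 0.20). Its cells were 53.2 ± 14.2% Sst and 20.8 ± 12.5% Vip. The Sp8 calls in all 3 groups depend on the pseudocount: at 10 CPM the differences were 0.37, 0.49 and 0.39 in eHGT_017h, eHGT_019h and hDLXI56i.

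**Figure D4:**
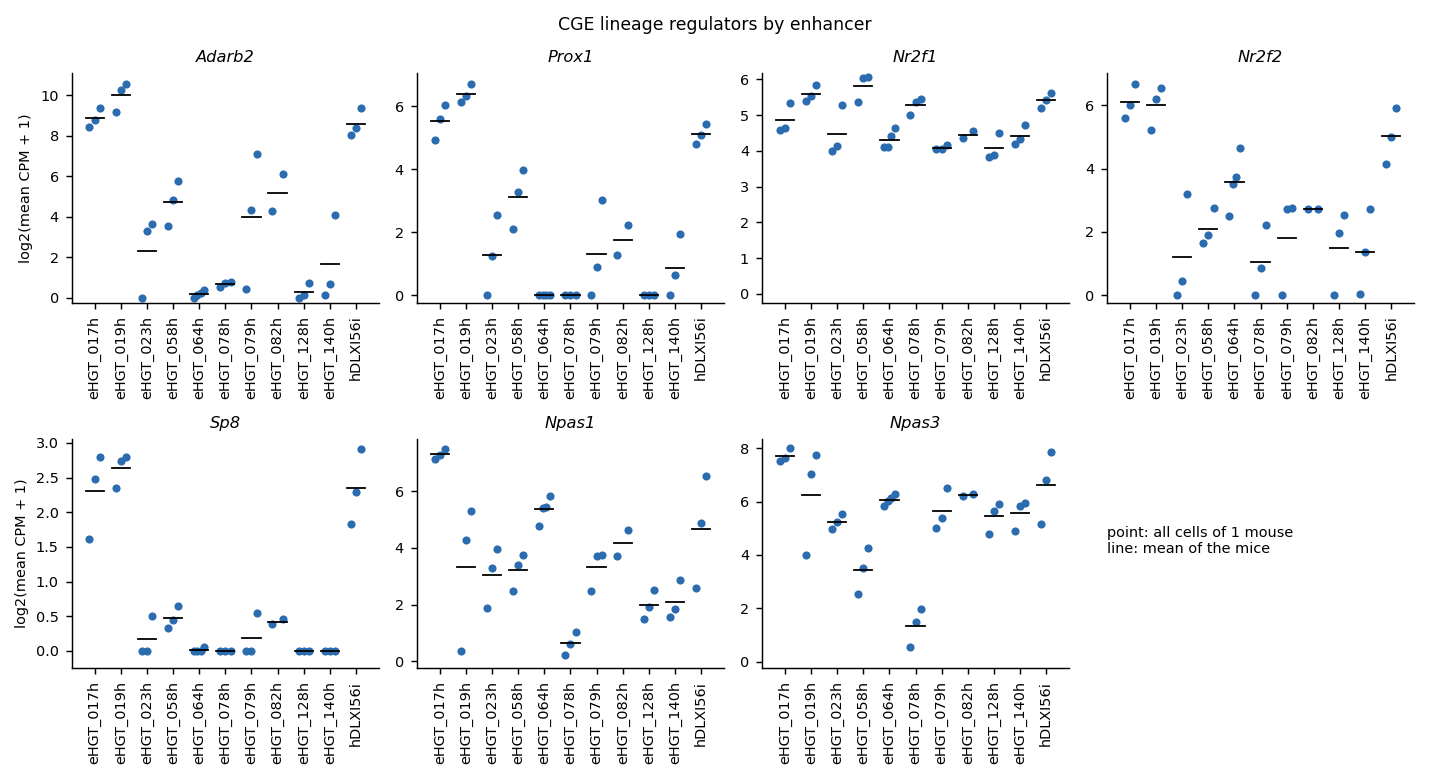
Mean level of each regulator over all sorted cells of a mouse, by enhancer, on a log2(CPM + 1) axis; a point is 1 mouse and the line is the mean of the points. Adarb2 and Prox1 are highest in eHGT_017h, eHGT_019h and hDLXI56i mice, and Npas1 in eHGT_017h mice.

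Other enhancers carried fewer calls, mostly of lower levels. Most of these lower calls ended with limma voom on read numbers recovered from the CPM, an alternative added after seeing the data. In eHGT_078h mice, where 136 of 140 sorted cells were excitatory, 5 members were called lower, where 5.36% of all genes tested were: Npas3 (-4.48 ± 0.52), Adarb2 (-3.91 ± 0.87), Npas1 (-3.22 ± 0.66), Nr2f2 (-2.11 ± 0.63) and Prox1, listed at 0 in all 3 mice. The Nr2f2 call ended without mouse MouseID-453328 (-2.03) or mouse MouseID-498749 (-1.59). In eHGT_058h mice Npas3 was called lower (-2.19 ± 0.52), where 3.15% of all genes tested were, and Nr2f1 higher (1.13 ± 0.20, adjusted p = 6.31e-05 in limma), where 9.36% were. Nr2f1 was at 40.3, 65.1 and 65.8 CPM in these mice, and the highest mouse of the other enhancers, an eHGT_019h mouse, was at 56.8 CPM.

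In eHGT_064h mice Adarb2 was called lower (-4.44 ± 0.77) with 0, 0.0955, 0.181 and 0.292 CPM, and Prox1 was listed at 0 in all 4 mice and called lower, where 1.84% of all genes tested were. Npas1 was called higher there (1.995 ± 0.58, adjusted p = 0.0348 in limma), where 0.676% of genes were, but leaving out any 1 of the 4 mice (1.84 to 2.20) ended the call. In eHGT_128h mice Adarb2 (-4.31 ± 0.87) and Prox1 (at 0 in all 3 mice) were called lower, where 3.78% of all genes tested were. In eHGT_140h mice Adarb2 (-2.83 ± 0.87) and Prox1 (-1.59 ± 0.43) were, where 3.97% of all genes were, and both calls ended without mouse MouseID-473543 (-2.36 and -1.48) or mouse MouseID-505190 (-2.08 and -1.16). No member was called by limma in eHGT_023h, eHGT_079h or eHGT_082h, where 0.65%, 1.86% and 1.67% of all genes tested were called in either direction.

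When cells of 1 class were compared between enhancers, no member passed. Vip cells were not compared, since eHGT_017h alone had 2 mice with at least 5 of them. In Lamp5 cells, between eHGT_019h and hDLXI56i (3 mice each), 0 of 7 members and 0 of 15346 genes were called by limma, with 0 members and 805 genes at an unadjusted p under 0.05. Adarb2 averaged 772 ± 152 CPM in eHGT_019h and 726 ± 184 CPM in hDLXI56i Lamp5 cells, and Prox1 74.5 ± 1.3 and 69.2 ± 9.9 CPM. In Pvalb cells of 20 mice 0 of the 3 members tested were called by limma, where 1.28% of genes were, and 0 members and 2159 of 16424 genes were at an unadjusted p under 0.05. In excitatory cells of 9 mice 0 of 5 were called by limma, where 0.983% of genes were, and 1 member and 2579 of 16580 genes were at an unadjusted p under 0.05. Without eHGT_023h mouse MouseID-497548 the excitatory count was 1.

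In Sst cells of 11 mice 0 of the 4 members tested were called by limma, where 0.160% of all genes were, and all 4 members and 1918 of 16221 genes were at an unadjusted p under 0.05. Npas1 averaged 20.3 ± 21.8 CPM (SD, n = 2 mice) in eHGT_023h Sst cells, and 109 ± 20 (n = 3), 87.2 ± 17.8 (n = 4) and 116 ± 54 (n = 2) in those of eHGT_017h, eHGT_064h and hDLXI56i. The share of Sst cells with Calb2 at 100 CPM or more was 46.2% of 13 cells and 80.0% of 5 cells in the 2 eHGT_023h mice. It was 33.3%, 50.0%, 5.56% and 42.9% in eHGT_064h mice, 28.6%, 9.09% and 22.2% in eHGT_017h mice, and 11.1% and 13.3% in hDLXI56i mice, so 1 of the 2 eHGT_023h mice lay within the range of eHGT_064h. With that share as a covariate, an alternative chosen after seeing the data, the Npas1 means of the enhancers spanned 1.79 on the log2 scale. Without it they spanned 2.92 (adjusted p = 0.718 with and 0.0957 without it in limma). Among Sst cells with low Calb2, Npas1 was at 62.6 CPM in eHGT_023h mouse MouseID-497548, and from 47.7 to 177 CPM over the 11 units. In its cells with high Calb2 it was at 4.27 CPM, the lowest of the 5 units. What lies behind the lower Npas1 mean in eHGT_023h was not tested. Without eHGT_064h mouse MouseID-498750, Nr2f2 was called and the count was 1, and without either eHGT_023h mouse that enhancer left the test and the range of the Nr2f2 means fell from 4.87 to 0.94 on the log2 scale.

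Members were found together in single cells of the CGE classes. A Vip cell had 5.398 ± 0.61 of the 7 members at 10 CPM or more (mean and SD over 4 mice), a Lamp5 cell 3.97 ± 0.25 (7 mice), an Sst cell 2.09 ± 0.49 (12 mice), a Pvalb cell 1.09 ± 0.25 (21 mice) and an excitatory cell 1.06 ± 0.16 (9 mice). At least 5 members were found in 38 of 50 Vip cells and 44 of 154 Lamp5 cells, and in no Pvalb, Sst or excitatory cell.

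Adarb2 and Lhx6 divided the cells almost without overlap. Of 1483 cells, 251 had Adarb2 and not Lhx6 at 10 CPM, 937 had Lhx6 and not Adarb2, 282 had neither and 13, from 9 mice, had both. Among these 13 cells Adarb2 had a median of 25.2 CPM, Pvalb was found in 9 and Lamp5 in 6. In the Lamp5 class 5 of 154 cells had both genes and 148 Adarb2 alone. These 5 cells all came from eHGT_019h mice. Their median Lhx6 was 253 CPM, against 107 CPM in the Pvalb cells that reached 10 CPM of it. Another 1 of the 13 is the eHGT_019h cell with 833 reads, where 1 read is worth 1200 CPM, so that any read passes the threshold.

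The genes most like each member over all 1483 cells, by Pearson's r of log2(CPM + 1), were often other members. Adarb2 was followed by Prox1 (r = 0.911), the receptor tyrosine kinase Kit (0.844) and Egfr (0.794), and Nr2f2 by Adarb2 (0.725), Kit (0.705) and Prox1 (0.681). Sp8 was followed by Adarb2 (0.542), Npas1 by Npas3 (0.477), Npas3 by Rpp25 (0.492) and Nr2f1 by the nuclear factor Nfix (0.435). These values describe cells that share mice, libraries and class, and most of the relation lies between classes: r of Adarb2 and Prox1 was 0.04 within the 154 Lamp5 cells and 0.01 within the 50 Vip cells.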

How the data were processed

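The authors deposited 1 table of CPM values per cell and gene, which sum to the same total in each cell. The submitters' processing notes name STAR and the build mm10; the counter, annotation, strand setting and cell filters are not stated in them. In every cell 100% of the values fell on multiples of what 1 read is worth (tolerance 0.01 read); the read numbers follow from this, and precision follows from the reads per cell that the report gives. No doublet caller was run.

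The mean CPM per mouse, or per mouse and class with at least 5 cells, was tested as log2(mean + 1), on genes that reached 1 CPM in 2 or more mice or units. limma 3.58.1 (trend, robust; statmod 1.5.0; R 4.3.3) was fitted on all genes with Benjamini-Hochberg adjustment; mouse was a block in class contrasts (consensus correlation 0.0807 over 53 units). Genes were called at an adjusted p under 0.05 where the log2 difference was 1 or more in size. The scripts were tested on simulated data. Descriptions used Python 3.11.15 (numpy 2.4.6, pandas 2.3.3, scipy 1.17.1) and figures matplotlib 3.10.9.

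The members, lists, splits and tests were chosen with earlier results of these data known. All 7 members are named; of each list, up to 4 genes with the largest difference, and of the genes most like a member up to 3, by Pearson's r among genes at 10 CPM or more in 5% of cells. Gene positions are from GENCODE on GRCm38, the same assembly as mm10, and start-site sequences from RefSeq. Alternatives covered the pseudocount, filters, class thresholds, unit size, mouse block, covariates, voom and each left-out mouse. Cells with several or no class markers or both transmitters' genes entered the enhancer test and no class test.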

Additional observations from a re-analysis of the deposited data

Results flagged for a closer look

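Of 45 groups of 4 to 10 mice or units examined for a value far from the others, 6 held one. The 95% critical value used marks about 1 in 20 groups by chance where values are normally distributed, and 3 of the 6 were a single value above 0 beside zeros, to which that rate need not apply. In excitatory cells Nr2f2 was at 10.5 CPM in eHGT_023h mouse MouseID-497548, beside 4.45 CPM in the next unit, and Prox1 was at 0.198 CPM in eHGT_058h mouse MouseID-458159 with the others at 0. In Sst cells with high Calb2, Prox1 was at 4.25 CPM in eHGT_023h mouse MouseID-497548 and at 0 in the others. In Lamp5 cells with low Ndnf, Npas1 was at 4.08 CPM in hDLXI56i mouse MouseID-384912, beside 1.42 in the next unit, and Npas3 at 83.9 CPM in hDLXI56i mouse MouseID-400157, beside 9.59. Sp8 was at 0.0348 CPM in eHGT_064h mouse MouseID-497550 and at 0 in the other mice of that enhancer.

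Cells outside the 5 classes also held the members above the limit that 0 cells allow. In the 21 GABAergic cells with none of the 4 class markers at 100 CPM, Npas3 reached 10 CPM in 85.7%, Nr2f1 in 76.2%, Adarb2 and Nr2f2 each in 66.7%, Npas1 in 61.9%, Prox1 in 42.9% and Sp8 in 23.8%. Of these 21 cells 14 had Adarb2 alone and 7 Lhx6 alone, with none having both or neither. In the 79 cells with genes of both transmitters, Nr2f1 was found in 65.8%, Npas3 in 57.0%, Adarb2 in 43.04%, Nr2f2 in 41.8%, Prox1 in 39.2% and Npas1 in 25.3%, and the median level of Slc17a7 was 23.1 CPM against 838 CPM in excitatory cells. Such cells made up 22.4 ± 12.8% (SD, n = 3 mice) of eHGT_019h and 8.93 ± 7.78% (n = 3) of eHGT_017h cells. For any other enhancer they made up at most 6.44% on average, so the shares are not spread evenly over enhancers.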

How the results depend on the processing

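Of the counts of member calls, that over the 11 enhancers and those of 3 of the 4 class contrasts stayed within 1.5 times their value under each alternative run. Single calls changed within these counts, and the calls lost are given above or below. Between enhancers, calls gained were followed only for Nr2f1 in eHGT_078h and Npas3 in hDLXI56i. Lamp5 minus Vip went from 4 calls to 2 with a pseudocount of 0.1 CPM and to 2 with the mouse as a fixed effect. The Ndnf split ranged from 0 to 2 calls over left-out mice. The Calb2 split had 1 call with a pseudocount of 10 CPM and 1 without the eHGT_017h cells, and ranged from 1 to 2 over left-out mice. The counts within excitatory cells and within Sst cells ranged from 0 to 1 over left-out mice. Prefix G or J is the letter after SM- in the names of the cells, and the labels used here do not state what it stands for. Differences that had missed the threshold changed sign as follows, and the cause was not tested. Sp8 in Pvalb minus Sst was -0.039 with a pseudocount of 0.1, -0.0022 with no filter, -0.0040 with prefix G alone, -0.0012 with a marker threshold of 30 CPM, -0.0031 and -0.013 with units of 3 and 10 cells, -0.013 with no mouse block, -0.79 with voom, and -0.0038 to 0.020 over left-out mice. Nr2f1 there was 0.12, 0.095 and 0.12 with marker thresholds of 30 and 300 CPM and units of 3 cells (-0.16 to 0.11 over left-out mice), Prox1 0.0031 with prefix G (-0.14 to 0.0021) and Adarb2 -0.019 with the mouse as a fixed effect. That last setting gave 0.63 for Sp8 and 0.42 for Nr2f2 in Lamp5 minus Vip and -0.13 for Npas3 in Lamp5 and Vip minus Pvalb and Sst; the enhancer as a covariate gave 0.47 for that Sp8 difference and -0.098 for that of Npas3. Sp8 in Lamp5 minus Vip was also 0.029 with a pseudocount of 0.1 and 0.18 with a threshold of 30 CPM (-0.62 to 0.44). With units of at least 10 cells it was -1.14, but only the Vip unit of eHGT_017h mouse MouseID-410195 (15 cells) is left there. In the Ndnf split Adarb2 was -0.028 and Nr2f1 0.0045 with a threshold of 30 CPM, Nr2f1 0.056 with units of 3 cells, and Adarb2 -0.0081 to 0.48 over left-out mice. Nr2f1 in the Calb2 split was 0.057 with units of 3 cells (-0.44 to 0.073). The count test planned in case of raw counts was not run. Voom on the recovered reads was added after seeing the data. It called 7150 genes in at least 1 enhancer (5118 on the log2 scale of CPM, 4983 by both). With voom the lower Adarb2 calls in eHGT_064h (-6.89), eHGT_078h (-4.14), eHGT_128h (-6.83) and eHGT_140h (-3.50) missed the threshold. So did those of Prox1 in eHGT_064h (-6.19), eHGT_128h (-6.56) and eHGT_140h (-2.08). The lower calls of Npas3 in eHGT_058h (-2.20) and eHGT_078h (-5.34), and of Npas1 (-4.70) and Nr2f2 (-3.29) in eHGT_078h, also missed it. Prox1 was called with voom in Pvalb minus Sst (-1.16). With a pseudocount of 10 CPM, beside the Sp8 and Lamp5 minus Vip calls given above, Prox1 in eHGT_064h, eHGT_078h and eHGT_128h (-0.97) and eHGT_140h (-0.81), Nr2f2 in eHGT_078h (-0.96) and Nr2f1 in eHGT_058h (0.89) were below the size required. With 0.1 CPM, Npas1 in eHGT_064h (2.31), Nr2f2 in eHGT_078h (-3.02) and hDLXI56i (3.01), and Adarb2 (-3.30) and Prox1 (-1.87) in eHGT_140h missed the threshold. Npas1 in eHGT_064h also missed it with no filter and with the prefix as a covariate (1.91), as did Adarb2 in eHGT_140h with no filter. No paired analysis was possible between enhancers because no mouse carried more than 1 of them; without the mouse block no member's class call changed. The 24 mice with prefix G, tested alone, kept the direction of each call but lost 6 in eHGT_058h (Npas3 -1.79, Nr2f1 0.97), eHGT_064h (Adarb2 -4.88, Npas1 1.74) and eHGT_140h (Adarb2 -2.28, Prox1 -1.18), and the 9 with J were too few to test. All 3 eHGT_023h mice had prefix J, so that enhancer was absent from the fit of prefix G mice. Its values, those of its Sst cells included, come from prefix J mice only. Tests on Vip units rest on 35 of the 50 Vip cells, in 4 units, and at 10 CPM a median cell holds few reads.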

Other observations

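Among excitatory cells, the level of Nr2f1 differed between cells marked by Rorb, a nuclear receptor gene of middle layers, and cells marked by Fezf2, a factor of deep-layer projection neurons. This split was chosen after the values were seen and carries no test. Cell numbers count all excitatory cells of a subset and may include cells of mice that are not in its mean. With Rorb at 100 CPM or more and Fezf2 below, Nr2f1 averaged 84.0 ± 24.5 CPM (SD, n = 5 mice, 85 cells), from 45.5 to 111 CPM. With Fezf2 at 100 CPM or more and Rorb below it averaged 24.6 ± 4.4 CPM (n = 3 mice, 56 cells), from 19.8 to 28.5 CPM, so the mice of the subsets did not overlap. Excitatory cells with neither gene at 100 CPM averaged 36.2 ± 3.9 CPM (n = 7 mice, 122 cells). Npas1 and Npas3 were at 2.37 CPM or below on average in each of these 3 subsets, and Nr2f2 was listed at 0 in the Fezf2 subset.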
